A study of Bos taurus with 15 samples.

Results

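Cytosolic ribosomal protein genes were the 45 genes whose name on the array was RPL or RPS with a number, RPLP0, RPLP1, RPLP2 or RPSA, out of 20602 gene names among 21475 bovine probes. They were chosen by name alone and were represented by 47 probes, of which the brightest was used for each gene. Of the 45 genes, 24 code for proteins of the large subunit and 21 for proteins of the small subunit. RNA came from the thymus of 15 Holstein cattle, taken at a slaughterhouse, with 1 animal on each single-colour Agilent array. Prednisolone, a synthetic glucocorticoid, was given orally to 8 of them, 30 mg to each head daily over 35 days, and the 7 controls had received no treatment. Age and sex were not given in the sources used here. The comparison asks which ribosomal protein transcripts differed between treated and untreated thymus.

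The ribosome reads messenger RNA in its small subunit and joins amino acids in its large subunit. Most of its proteins are normally present in 1 copy per ribosome. Messages for these proteins share a pyrimidine-rich start, the 5′ terminal oligopyrimidine tract, through which the mTORC1 kinase sets their translation. Dividing immature thymocytes need large numbers of ribosomes, and glucocorticoids are known to kill such cells and to shrink the thymus.

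Levels are given as log2 signal minus the 75th percentile of the array's bovine spots, so that 0 is the 75th percentile. They serve to compare animals for 1 probe and not 1 gene with another. A gene was tested when its probe was well above background on at least 7 of the 15 arrays, as 16069 probes were, and 44 of the 45 members passed. The member left out was RPS27A, which encodes ubiquitin fused to a small subunit protein. Its probe was well above background on 3 arrays. The mean level of 43 of the 44 tested members lay above the 75th percentile of the arrays, and the exception was RPL3L, the muscle-type counterpart of RPL3. RPS15A had 3 probes. The brightest, described as ribosomal protein S15a, was used here and differed by 0.11 between prednisolone and control. Another, described in the array's annotation as ADP-ribosylation factor-like 6 interacting protein, differed by -0.066, and the last was above background on 0 arrays. The genes have many processed pseudogenes in mammals, and whether the probes are specific was not tested.

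The arrays carried 42990 bovine spots each, and 67.1% to 77.7% of those were well above background. They lay on 4 slides. A single prednisolone animal shared slide 1 with 3 controls, and another shared slide 3 with 3 more. On slide 2 there were 3 treated animals beside 1 control. Prednisolone animals 2, 4 and 7 were on slide 4, which had no control. The slide 4 arrays stood apart. They had 840 to 1050 spots marked as outliers by the scanner software, against 5 to 17 on the other arrays, and the treatment results are also given without them or with slide as a block. Thymus markers were present, with 11 of 15 thymocyte and 7 of 8 thymic epithelial marker genes kept, among them CD8A and PRSS16. In whole tissue, fewer cells of a type and less RNA per cell cannot be told apart.

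No ribosomal protein gene passed the test between prednisolone and control. Of the 44 members, 0 had an adjusted p under 0.05 in limma, with Benjamini-Hochberg adjustment over all 16069 probes, and 0% of all probes did. At an unadjusted p under 0.05, 2 members were higher in prednisolone, where 3.98% of all probes were, namely RPLP1 and RPS4X, and 1 was lower, where 3.1% of all probes were. The smallest adjusted p of a member was 0.68. The difference was above 0 for 26 members and below 0 for 18, and 49.9% of all probes were above 0. The median difference was 0.017, beside -0.00044 for all probes. Without slide 4, 38 members were below 0 and the median was -0.084, beside 0.021 for all probes. The control and prednisolone ranges overlapped for every member, and 0.112% of all probes had ranges that did not. Large subunit members had a median difference of 0.013, and small subunit members one of 0.018.

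The stalk proteins of the large subunit recruit the elongation factors. RPLP1 lay between 4.72 and 5.27 in controls, with a median of 4.95, and between 4.88 and 5.51 in prednisolone animals, with a median of 5.16. The highest 3 values were those of the slide 4 arrays, and the groups overlapped over much of their range. The difference was 0.27 ± 0.12 (SE; adjusted p = 0.69 in limma), or 0.18 ± 0.11 with slide as a block. RPLP0, which anchors the stalk, ran from 7.39 to 7.89 around a median of 7.52 in controls and from 7.39 to 8.05 around 7.70 in prednisolone. Its difference was 0.11 ± 0.11, and it turned to -0.018 with slide as a block. RPLP2 was between 7.20 and 7.66 in controls and between 7.29 and 7.69 in prednisolone, with medians of 7.53 and 7.42. Its difference was 0.0024 ± 0.087. The 3 stalk genes thus had overlapping groups, and no difference passed the test.

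Several members have roles in signalling or in the surveillance of ribosome assembly. RPS6, the small subunit protein that S6 kinases phosphorylate, spanned 6.80 to 7.49 in controls (median 7.10) and 6.84 to 7.67 in prednisolone (median 7.23). Its difference of 0.16 ± 0.14 had an adjusted p of 0.85 in limma and became -0.074 with slide as a block. RPL5, which with RPL11 and 5S RNA holds MDM2 when assembly fails, spanned 6.36 to 6.87 in controls (median 6.57) and 6.48 to 6.91 in prednisolone (median 6.67). The difference was 0.094 ± 0.090, and 0.018 with slide as a block. For both genes the groups overlapped, and the top of the prednisolone range came from slide 4. RPL23, another large subunit protein that binds MDM2, differed by -0.038 ± 0.074. RPS14, a small subunit protein whose loss of 1 copy causes the anaemia of the 5q deletion syndrome, ran from 7.53 to 8.21 in controls (median 7.85) and from 7.42 to 8.03 in prednisolone (median 7.71). It differed by -0.15 ± 0.13, and by -0.31 ± 0.12 without slide 4. Its duplicate spots disagreed on slides 1 to 3, with a standard deviation of 0.60 between them, against 0.057 on slide 4. RPS3, which lines the entry channel for messenger RNA, differed by -0.0030 ± 0.090. No member of this group passed the test.

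The member lower in prednisolone at an unadjusted p under 0.05 was RPS27L, a counterpart of RPS27. It ran from 2.44 to 2.70 in controls around a median of 2.66, and from 2.29 to 2.64 in prednisolone around 2.46. The control median lay above the highest prednisolone value, and the lowest controls lay within the prednisolone range. The difference was -0.16 ± 0.066 (adjusted p = 0.68 in limma), and -0.17 ± 0.071 with slide as a block. RPL10, which joins the large subunit late in its assembly, spanned 6.94 to 7.35 in controls (median 7.14) and 6.90 to 7.15 in prednisolone (median 7.05), and differed by -0.13 ± 0.076. RPL36A and RPL29, both of the large subunit, differed by -0.11 ± 0.064 and -0.095 ± 0.078. RPL3L, at levels from -4.70 to -4.09 in controls and -5.24 to -4.07 in prednisolone, differed by -0.17 ± 0.16. The sign of RPL3L turned to 0.085 with slide as a block.

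On the other side, RPS4X, the X-linked form of small subunit protein S4, spanned 4.43 to 5.37 in controls (median 4.98) and 4.78 to 5.58 in prednisolone (median 5.25). Its difference was 0.35 ± 0.15 (adjusted p = 0.70 in limma), and 0.21 ± 0.17 with slide as a block. RPL15, a large subunit protein, lay between -0.49 and 0.88 in controls and between 0.022 and 1.18 in prednisolone, and differed by 0.47 ± 0.23. RPS18, of the head of the small subunit, differed by 0.19 ± 0.097. RPL4, which lines the exit tunnel of the large subunit, ran from 2.08 to 4.38 in controls and from 3.45 to 4.65 in prednisolone. Controls 1 and 3 lay far below the other animals, and the difference was 0.58 ± 0.35. The groups overlapped for each of these genes. Without slide 4 the difference was 0.16 for RPS4X, 0.083 for RPS18, 0.29 for RPL4 and 0.49 for RPL15, and that of RPLP1 was 0.11.

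**Figure D1:**
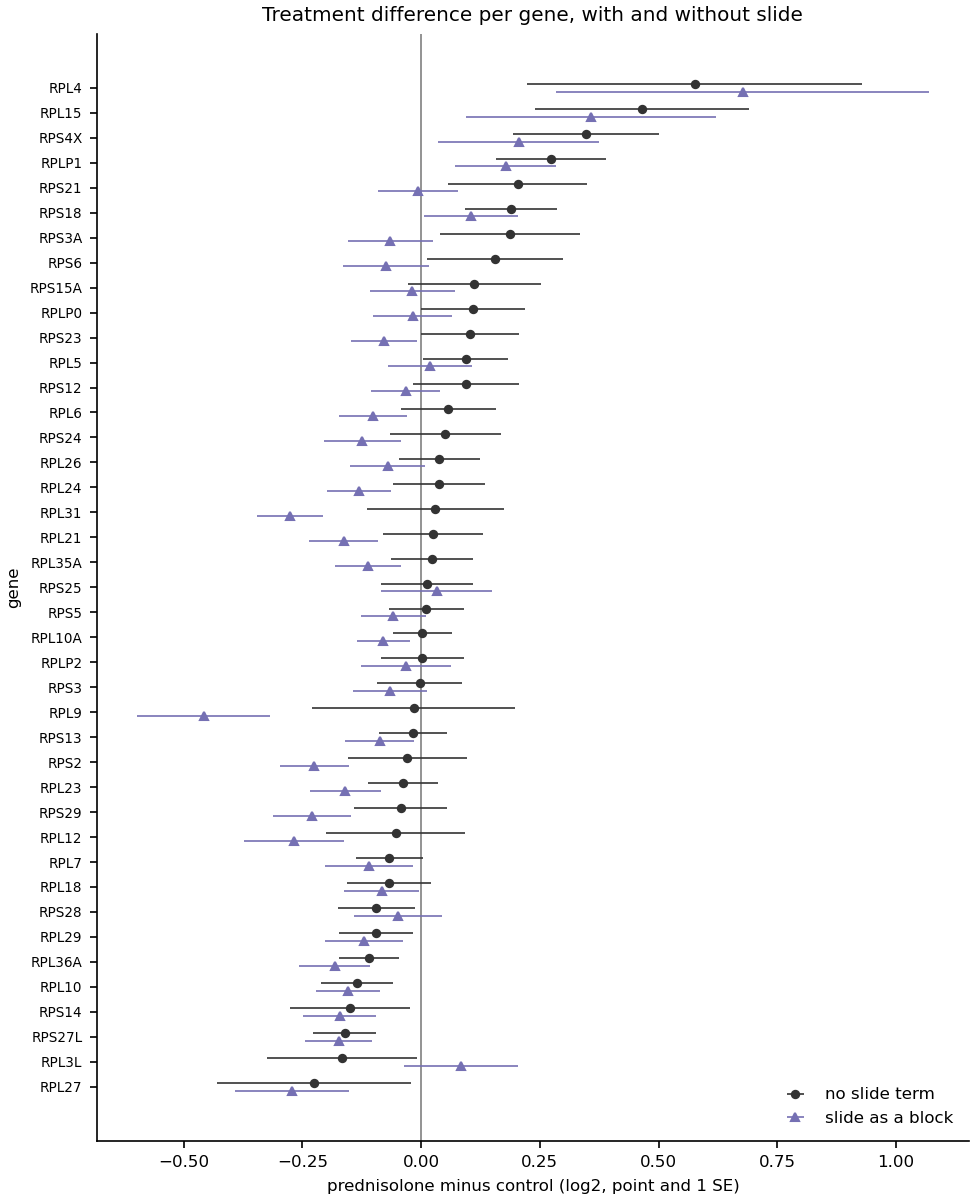
Difference between prednisolone and control on the log2 scale (x axis) for 41 of the 44 tested genes (y axis), with 1 standard error, without a slide term (circles) and with slide as a block (triangles). Without the block 24 of those drawn lie above 0, and with it 33 lie below 0.

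With slide as a fixed block, most members had negative differences. The count below 0 was 36 of 44, where 49.9% of all probes were below 0, and the median was -0.081, beside 0.00026 for all probes. At an unadjusted p under 0.05, 13 members were lower in prednisolone, where 4.57% of all probes were, and 0 were higher, where 5% of all probes were. None passed after adjustment, and the smallest adjusted p was 0.26 in limma. The 13 included RPL31, which lies by the exit tunnel (-0.28 ± 0.069), RPL9 (-0.46 ± 0.14), RPS2 of the messenger RNA entry channel (-0.22 ± 0.073) and RPS29 (-0.23 ± 0.082). The duplicate spots of RPL9 disagreed on slides 1 to 3, with a standard deviation of 0.90 between them. The blocked fit takes its contrast from slides 1 to 3, and there the slides differed. The median difference was -0.14 within slide 1, with 37 members lower, 0.0026 within slide 2, with 22 lower, and -0.12 within slide 3, with 39 lower. Over all probes the medians were -0.0023, 0.029 and -0.013, with 8106 of 16068, 7179 of 16068 and 8438 of 16067 lower. Slides 1 and 3 each compared 1 prednisolone animal with 3 controls. Without prednisolone animal 1, which was on slide 3, 4 members were lower at an unadjusted p under 0.05 in the blocked fit, and without prednisolone animal 6, on slide 1, 4 were. The count without each other animal was 9 to 14.

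The blocked direction also depended on the scaling. With quantile normalization, which gives every array the same distribution of signals, 20 of the 44 members were below 0 with slide as a block. Over all probes 51.7% were, and the median of the members was 0.011. With median centring 36 were below 0, where 54.0% of all probes were, and the median was -0.097. With the authors' values 25 were, where 51.1% of all probes were, and it was -0.022. With normexp background correction 14 were, where 69.7% of all probes were. The median of the members was 0.058 there, and that of all probes was -0.24. At an unadjusted p under 0.05, 4 members were lower with quantile normalization, 8 with median centring, 6 with the authors' values and 1 with normexp. Of all probes 4.86% to 5.58% were. The other bright probes moved too. Among the 54 kept probes outside the family whose mean level reached 5.78, the lower quartile of the members, 36 were below 0 with slide as a block and their median was -0.076. Of those, 14 reached 6.76, the median member level. Among the 14, 13 were below 0 and the median was -0.10. Whether signal level accounts for the direction of the members was not tested.

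The mean of the 44 members per animal showed the slides more than the groups. It was 5.84 ± 0.15 (SD, n = 7) in controls, from 5.65 to 6.07, and 5.89 ± 0.19 (SD, n = 8) in prednisolone animals, from 5.59 to 6.10. The ranges overlapped, but prednisolone animals 2, 4 and 7 lay above every control and prednisolone animal 1 below every control. On slide 1 the 4 animals lay between 5.85 and 6.07, on slide 2 between 5.74 and 5.83, on slide 3 between 5.59 and 5.78, and on slide 4 between 6.08 and 6.10. The 3 slide 4 animals were above every other animal, and slides 1 and 3 did not overlap. Prednisolone animal 6 was the lowest of slide 1 and prednisolone animal 1 the lowest of slide 3. The subunits moved together, and the large minus small subunit mean stayed between -1.44 and -1.27 in all 15 animals.

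**Figure D2:**
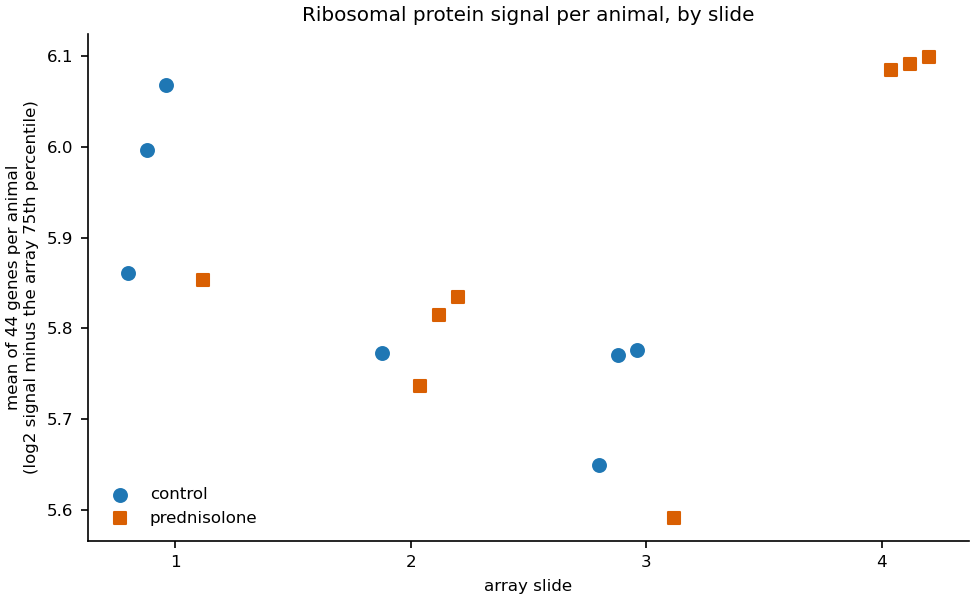
Mean of the 44 tested genes in each animal (y axis, log2 signal minus the 75th percentile of the array) by array slide (x axis), with circles for controls and squares for prednisolone animals. The 3 prednisolone animals of slide 4 sit between 6.08 and 6.10, above all the others, and slide 3 is the lowest.

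In a fit with treatment and slide, 27 of the 44 members differed between slides (adjusted p under 0.05, limma F test over all probes), and 30.6% of all probes did. The share of members was 61.4%. Without slide 4, 8 members did, where 12% of all probes did. RPL31 had the smallest p. Its slide means were 7.18, 7.03, 6.83 and 7.52 on slides 1 to 4 (adjusted p = 0.00012). RPS21, of the small subunit, was also among the 5 with the smallest p, with means of 6.54, 6.31, 6.24 and 6.99. RPS2, with 7.28, 7.02, 6.92 and 7.44, kept this order too: highest on slide 4, then slide 1, slide 2 and slide 3. RPL27, of the large subunit, had another order, with 1.06 on slide 1, 0.58 on slide 2, 0.080 on slide 3 and 0.40 on slide 4.

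Within the prednisolone group, slide 4 could be compared with the 5 treated animals on other slides, where treatment did not differ. Of the 44 members, 19 were higher on slide 4 (adjusted p under 0.05, limma), where 3.41% of all probes were, and 1, RPL3L, was lower, where 12.4% of all probes were. The difference was above 0 for 39 members, where 42.9% of all probes were above 0. The median difference was 0.34, beside -0.063 for all probes. All 3 slide 4 values lay above all 5 others for 26 members, where 9.28% of all probes did so. For 15 members they lay above all 12 other arrays, where 3.82% of all probes did so. Whether the slide or these 3 animals differed cannot be told apart.

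**Figure D3:**
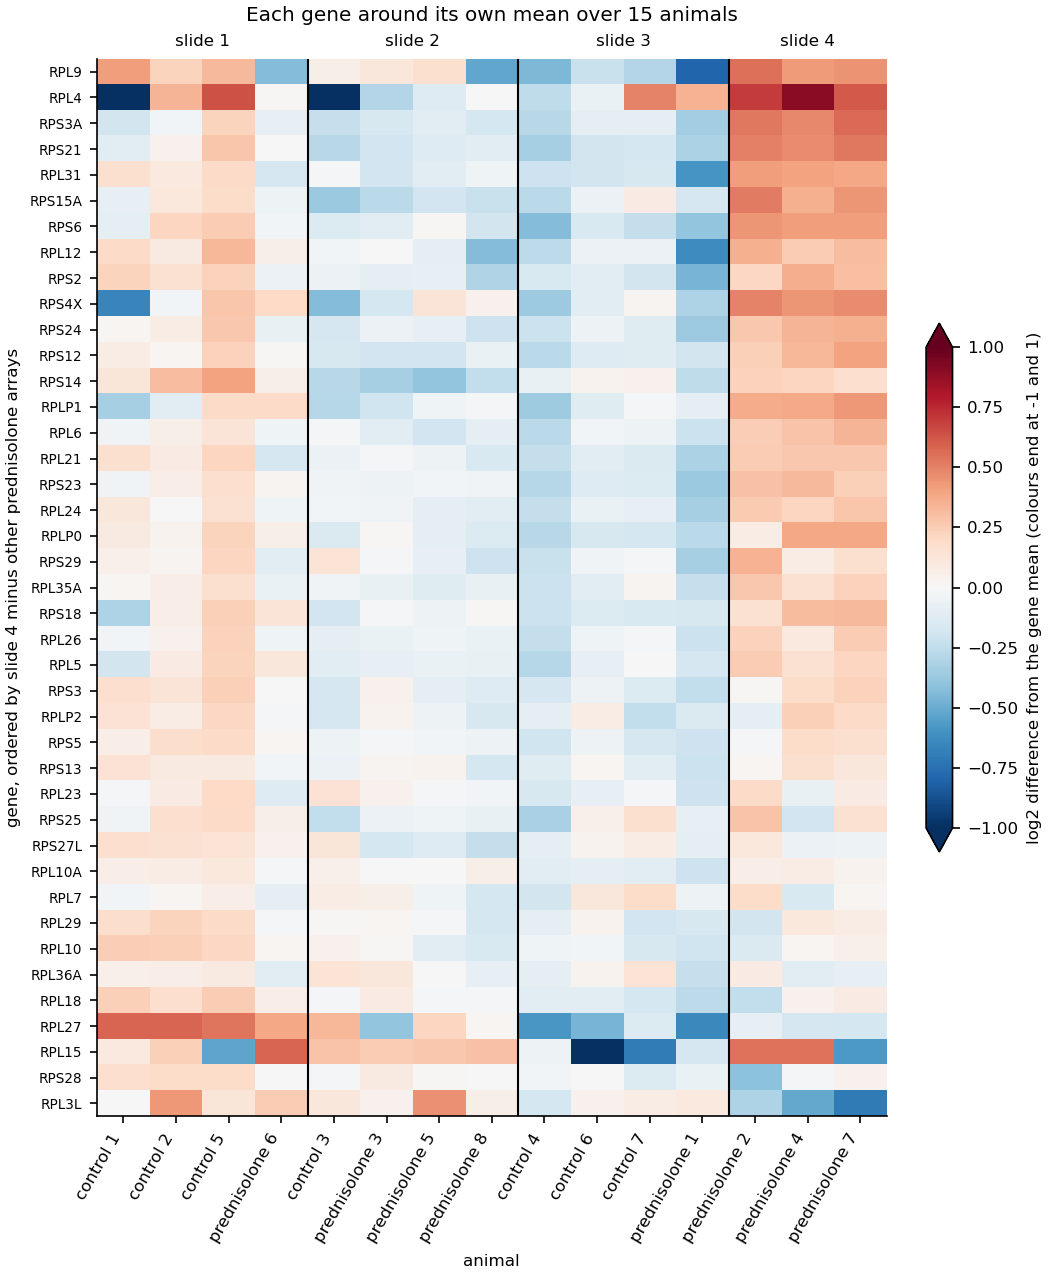
Level of 41 of the 44 tested genes (y axis, ordered by the slide 4 difference) in each of the 15 animals (x axis, grouped by slide), as the log2 difference from the gene's own mean, from blue (lower) to red (higher). The 3 slide 4 columns are red in most rows, with RPL3L, at the bottom, lower there by 0.69 than on the other prednisolone arrays.

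RPS3A, a small subunit protein near the exit of the messenger RNA, had the smallest p in this comparison. Its values on slide 4 were 7.92, 7.87 and 7.95, and the other prednisolone animals had 7.04, 7.23, 7.28, 7.31 and 7.22. The sets were separated, and control 5, at 7.61, was the nearest other array. The difference was 0.70 ± 0.098 (adjusted p = 0.0016 in limma). RPS21 had 7.00, 6.96 and 7.02 on slide 4 and 6.18, 6.30, 6.36, 6.49 and 6.38 in the others, a difference of 0.65 ± 0.10 (adjusted p = 0.0028 in limma). It too was separated from every other array. RPS15A, of the small subunit, had 6.34, 6.18 and 6.26 against 5.65, 5.55, 5.63, 5.77 and 5.60, a difference of 0.62 ± 0.096. RPS6 had 7.67, 7.65 and 7.65 against 6.84, 7.13, 7.24, 7.21 and 7.05, a difference of 0.56 ± 0.11. In both, every slide 4 value exceeded every other array's. RPS6 was not called with quantile normalization (0.18) or with the authors' values (0.35).

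RPL3L went the other way, with -4.83, -5.04 and -5.24 on slide 4 against -4.43, -4.49, -4.07, -4.27 and -4.47. Its slide 4 values were the lowest of all 15, and the difference was -0.69 ± 0.14 (adjusted p = 0.011 in limma). It was not called with quantile normalization (-0.25), the authors' values (-0.44) or median centring (-0.46), nor with the second spot alone (-0.39). Members with differences near 0 were RPL18 (-0.012 ± 0.12), RPL36A (0.022 ± 0.11) and RPL10 (0.060 ± 0.10), so the slide 4 difference was not shared by all members.

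Scaling changed the size and the number of these calls. With quantile normalization 5 members were higher on slide 4, where 6.09% of all probes were, and 2, RPL18 and RPS28, were lower, where 7.46% were. The median difference was 0.038, beside 0.031 for all probes. The authors' values gave 5 higher, where 4.64% of all probes were, and a median of 0.13. Median centring gave 28, where 12.2% were, and 0.56, and normexp gave 15, where 3.79% were, and 0.30. The same 5 members were higher under all 5 scalings and with each of their 2 spots alone, with RPL4, RPS3A, RPS15A and RPS21 among them. Across the scalings RPS3A differed by 0.31 to 0.93, RPS21 by 0.39 to 0.88, and RPS15A by 0.44 to 0.85. Of the 54 bright probes outside the family, 5 were higher on slide 4 and their median difference was 0.13. Among the 14 of them at or above the median member level, 3 were higher and the median difference was 0.22. The count of 19 fell to 10 without prednisolone animal 2, to 9 without animal 4, to 6 without animal 7 and to 11 without animal 8. The median difference stayed between 0.30 and 0.36. Each of these runs had fewer arrays, and its count is not set beside that of all probes.

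**Figure D4:**
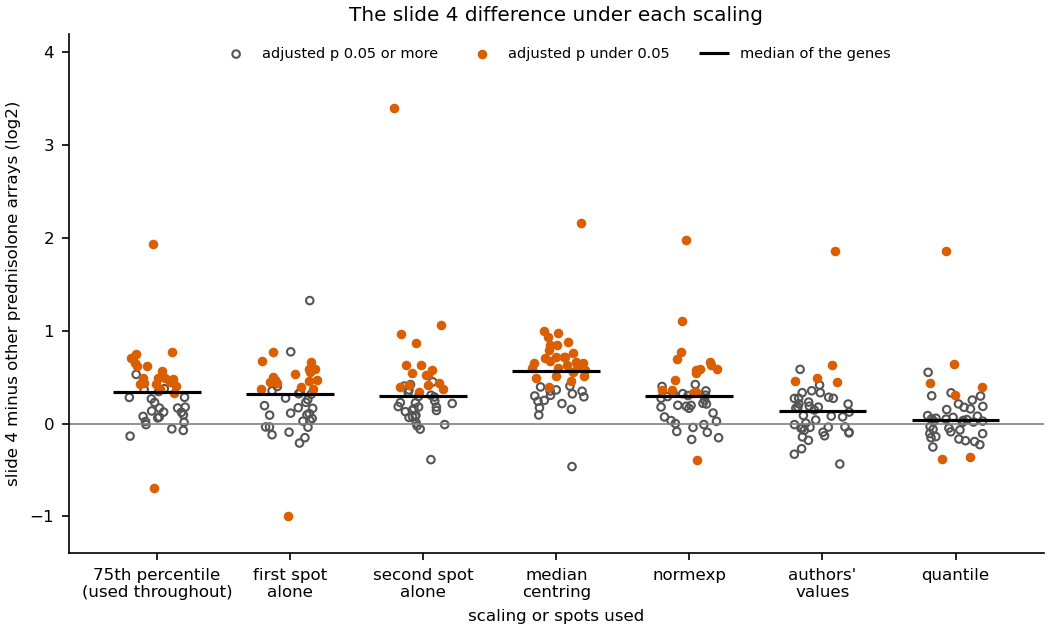
Slide 4 minus the other prednisolone arrays on the log2 scale (y axis) for each gene, by the scaling or the spots used (x axis), with filled points for an adjusted p under 0.05 and a line at the median of the genes. The median is 0.34 with the 75th percentile and 0.038 with quantile normalization. Under every scaling 5 genes are higher, a count not made over all probes.

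Markers of other tissues were set beside the slide 4 difference. Of 7 kept skeletal muscle markers 5 were higher on slide 4, 0 of them past the threshold, and their mean level was -1.61 to -1.09 there, -3.71 to -1.30 in the other prednisolone animals and -2.86 to -0.78 in controls. Of 5 erythroid markers 0 were higher and 2 were lower past the threshold. Over all probes 42.9% were above 0 and 12.4% were lower past the threshold. Of 5 adipocyte markers 1 was higher, and of 4 smooth muscle markers 1 was. Higher too were 2 of 5 fibroblast, 2 of 6 B and plasma cell, 4 of 7 thymic epithelial and 7 of 11 thymocyte markers. Of the B and plasma cell markers 1 was higher and 1 lower past the threshold. The 11 thymocyte markers had a mean level of 3.01 to 3.11 on slide 4 and of 2.93 to 3.15 in the other prednisolone animals. Their part in the result was not tested.

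Each member had 2 spots on the array, and for some members these disagreed on slides 1 to 3 but not on slide 4. The median standard deviation between duplicate spots was 0.076 on slides 1 to 3 and 0.044 on slide 4, and it was larger on slides 1 to 3 for 35 of 44 members and 68.4% of all probes. For RPL9, of the large subunit, the deviation was 0.90 against 0.14, and the slide 4 difference was 1.32 with the first spot alone and 0.22 with the second. For RPS14 it was 0.60 against 0.057, and the difference turned from 0.96 with the second spot to -0.093 with the first. RPS15A had 0.35 against 0.020, and differences of 0.37 with the first spot and 0.87 with the second. RPS6 had 0.34 against 0.12, and differences of 0.59 and 0.54. RPS3A and RPS21 had spot deviations of 0.069 and 0.068 on slides 1 to 3, and their differences were 0.77 and 0.67 with the first spot and 0.63 and 0.63 with the second. Among the 30 members whose spots agreed to within a deviation of 0.1, 9 were higher on slide 4, where 3.27% of all probes with such spots were, and 17 differed between slides, where 15.9% did.

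**Figure D5:**
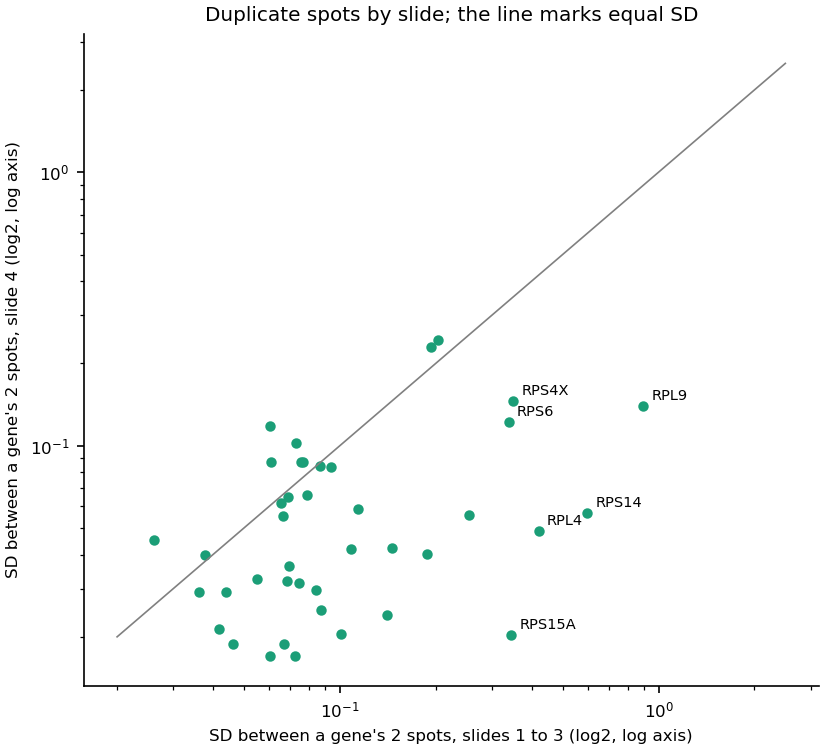
Standard deviation between the 2 spots of 41 of the 44 tested genes on slides 1 to 3 (x axis) and on slide 4 (y axis), both in log2 units on log axes, with a line at equality. Most genes lie below the line, and RPL9 and RPS14 have the largest values drawn on slides 1 to 3, 0.90 and 0.60.

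Between animals of 1 group the median member varied less than the median kept probe. The median member level was at the 99.7th percentile of all kept probes, and spread was not compared at matched signal level. The median within-group standard deviation was 0.19, beside 0.26 for all kept probes, and it was 0.10 after slide was also removed, beside 0.20. Among the 5 most variable members were RPL4 at 0.73, RPL15 at 0.46, RPL9 at 0.44 and RPL27 at 0.42. RPL10A varied least, at 0.094, and RPL36A at 0.098, RPS27L at 0.10 and RPL7 at 0.12 were also among the 5 least variable. RPL15 had agreeing spots, with a deviation of 0.071, and its spread came from low values in controls 5, 6 and 7 and in prednisolone animals 1 and 7. RPL4 and RPL9 were among those with disagreeing spots.

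Members moved together across the 15 animals. With group means removed, the median Pearson correlation between members was 0.61, beside 0.017 for all kept probes, and 90.8% of pairs were above 0. The points share the array and its scaling, and genes are not independent. With slide removed too the median was 0.32, beside 0.011, and without slide 4, over 12 animals, it was 0.62 with group means removed. With quantile normalization it was 0.061 before slide was removed. RPS24 had the highest median correlation with the others, 0.84, followed by RPS3A and RPS6, each at 0.82. RPL3L was at -0.37, RPS28 at 0.0080 and RPL15 at 0.056, below the other members. With slide removed they were at 0.18, 0.038 and -0.45.

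A further 33 ribosomal protein genes were on the array under other names, most of them clone or locus names. They were found by gene number, accession, gene name, synonym or description. They fall outside the naming rule. In the treatment comparison 0 of 33 passed, and their median difference was -0.0066. Without slide 4 it was -0.085. With slide as a block 23 were below 0, where 49.9% of all probes were. At an unadjusted p under 0.05 in that fit, 8 were lower, where 4.57% of all probes were. RPL34, of the large subunit, ran from 2.39 to 3.70 in controls and from 3.27 to 4.62 in prednisolone, a difference of 0.80 ± 0.24 (adjusted p = 0.57 in limma). RPSA, the laminin receptor precursor of the small subunit, differed by 0.50 ± 0.18. Leaving out slide 4 gave 0.43 ± 0.21 for RPL34 and 0.24 ± 0.16 for RPSA, and blocking on slide gave 0.49 for RPL34 and 0.20 for RPSA. RPL11, the partner of RPL5, differed by 0.036 ± 0.11, RPL22, whose loss arrests the αβ lineage of T cells, by 0.093 ± 0.11, and RPS19, the gene most often mutated in Diamond-Blackfan anaemia, by -0.0066 ± 0.082. RPL13A differed by -0.15 ± 0.11, RPL41 by 0.060 ± 0.13 and RPS26 by -0.068 ± 0.17. With slide as a block the sign turned for RPL11 (-0.15 ± 0.061), RPL22 (-0.016 ± 0.12), RPS19 (0.0083 ± 0.079), RPL41 (-0.19 ± 0.069) and RPS26 (0.081 ± 0.11). RPL10L, the testis counterpart of RPL10, was above background on 7 arrays and differed by -1.23 ± 0.51. Between slides 14 of 33 differed, and 9 were higher on slide 4 than on the other prednisolone arrays, where 30.6% and 3.41% of all probes did so.

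Other genes of the translation machinery gave no call between prednisolone and control either. Under the array's own gene names few were found, and 0 passed among 10 initiation, 5 elongation and termination, 5 ribosome assembly and 4 mTORC1 pathway genes, 3 genes of the ribosome stress response, 1 gene of RNA polymerase I and 1 ribosome companion. Under any name, 33, 13, 54, 26, 9, 11 and 6 were found and 0 passed. The 10 initiation genes had a median difference of 0.0096, with EIF2B2, a subunit of the exchange factor eIF2B, at -0.19 ± 0.10 and EIF2S1, the alpha subunit of eIF2, at 0.12 ± 0.11. Over the 33 found under any name the median was 0.028, with 18 higher and 15 lower. Of the 33, 3 had an unadjusted p under 0.05 in limma, where 3.98% of all probes did so as higher and 3.1% as lower. Elongation and termination genes had a median of -0.018, with EEF1B2, the exchange factor for elongation factor 1A, at -0.15 ± 0.11 and EEF1E1 at -0.088 ± 0.14. Assembly genes had a median of 0.15 over the 5 found under the array's names and of 0.018 over the 54 found under any name, with SBDS, which frees the large subunit of eIF6, at 0.15 ± 0.077 and BYSL, of small subunit maturation, at 0.23 ± 0.12. POLR1C, shared by RNA polymerases I and III, differed by 0.22 ± 0.068 (adjusted p = 0.57 in limma), and the median over the 11 RNA polymerase I genes found under any name was 0.10. In the mTORC1 list the median was 0.13 over 4 genes and -0.0015 over the 26 found under any name. RPS6KB1, an S6 kinase, was at 0.18 ± 0.12 with the probe that carries its name and at -0.061 ± 0.084 with a brighter one under another name, and EIF2AK1, the haem-regulated kinase of eIF2, was at 0.24 ± 0.17. In the ribosome stress list it was -0.11, with GADD45A, a growth arrest gene, at -0.21 ± 0.13. FAU, which encodes small subunit protein S30 fused to a ubiquitin-like protein, differed by -0.029 ± 0.061, and the 6 companions found under any name had a median of 0.083.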

How the data were processed

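Spot intensity and spot flags came from scanner output that the authors deposited, written by version 9.5.1.1 of Feature Extraction according to the headers. A second deposited file gives 1 linear intensity for each spot and array. Its column medians were 189 to 274, and how it was centred is not known. R 2.11.1 is named in the submitters' processing notes. RNA was extracted with TRIzol and a column cleanup, per the labels. Here, the log2 of the processed signal had each array's 75th percentile subtracted, outlier spots were dropped and spots averaged. The tests used limma (3.58.1, under R 4.3.3) at an adjusted p of 0.05. Slides were read from the file headers. Alternatives were other scalings (normexp with an offset of 50), filters, slide as a fixed or random block, array weights and each animal left out. Members and lists were chosen with earlier results of these data known. The named genes were the 5 with the smallest p in each direction, a list of roles, the 5 most and 5 least variable members, the 5 with the smallest p between slides, members with several probes or a saturated spot, and up to 2 genes per other list. Some genes that this rule names are not reported here, and counts and medians include them. RPS25 had a saturated spot on 1 array. The calculation was tested on simulated data. Intensities carry no counting error, and the number of arrays limits precision.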

Additional observations from a re-analysis of the deposited data

Results flagged for a closer look

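Among the 88 groups of member values, 2 held an animal set apart from the rest of its group by a gap large for the group's range, a mark that chance gives in about 1 in 20 groups. RPL10A in prednisolone animal 1 was 6.45, and the nearest other prednisolone value was 6.64. RPS28 in prednisolone animal 2 was 6.28, and the nearest other was 6.63. Animal 1 was on slide 3 and animal 2 on slide 4.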

How the results depend on the processing

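No paired analysis was possible because the labels give no numbers shared by the groups. Treatment called 0 members under every alternative run, and the median difference without 1 animal was -0.013 to 0.064. Of 340 other values of 17 named members, 303 kept their direction, 37 reversed and 0 passed. Reversed with slide as a fixed block were RPL3L (0.085), RPLP0 (-0.018), RPLP2 (-0.032) and RPS6 (-0.074), and likewise in that block without slide 4. Without slide 4 and without the block they gave 0.093, -0.028, -0.064 and -0.055, and RPL5 gave -0.0057. Median centring with the block gave 0.069 for RPL3L, -0.033 for RPLP0, -0.048 for RPLP2 and -0.090 for RPS6, and without it 0.019 for RPS3. Quantile normalization gave -0.018 for RPLP2, and with the block 0.046 for RPL3L and 0.036 for RPS3. The authors' values gave 0.0030 for RPS3, and with the block 0.155 for RPL3L, 0.0051 for RPS3 and -0.010 for RPS6. Normexp gave 0.10 for RPL23, 0.010 for RPL29, 0.045 for RPS14 and 0.068 for RPS3, and with the block 0.065, 0.082, 0.023 and 0.085. RPLP2 was -0.014 with a random block, -0.031 with array weights and -0.0074 with the first spot alone, where RPS3 was 0.0022. Without 1 animal RPLP2 ran from -0.039 to 0.037 and RPS3 from -0.036 to 0.036.

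Members differing between slides numbered 9 with quantile normalization and 16 with the authors' values, and neither count is set beside all probes. They numbered 0 with normexp (144 of all probes), 8 without slide 4 (12% of all probes) and 17 of 30 with agreeing spots (15.9% of such probes). Members higher on slide 4 numbered 5, with median 0.038, under quantile normalization, 5, with 0.13, under the authors' values, and 9 of 30 with agreeing spots. The count was 6 to 18 without 1 animal, where fewer arrays were left, and median centring moved the median to 0.56. RPL27 on slide 4 turned to 0.17 with median centring and 0.0053 with the second spot, and RPS14 to -0.093 with the first. The median correlation was 0.061 with quantile normalization. List medians became -0.13 (elongation) and 0.050 (ribosome stress) with the block, and, under any name, 0.10 (RNA polymerase I), -0.0015 (mTORC1), 0.018 (assembly) and 0.083 (companions). The cause was not tested. Blocked scalings, single spots, agreeing spots, bright probes and any-name lists were chosen after seeing the data. With 3 arrays on slide 4 and 1 treated animal on slides 1 and 3, the design limits what slide and treatment can be told apart.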
